A study of Mus musculus with 8 samples.

Results

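The genes described here encode receptors for the neurotransmitters GABA, glutamate, glycine and acetylcholine, and they were chosen by symbol alone. The symbol pattern found 67 of 21883 protein-coding mouse genes: 17 subunits of the GABA-A receptor, 2 of GABA-B, 5 of the glycine receptor, 4 of AMPA, 7 of NMDA and 5 of kainate receptors, 2 delta receptors, 8 metabotropic glutamate receptors and 16 nicotinic acetylcholine receptor subunits. The remaining gene, Grid2ip, encodes a scaffold protein of the delta receptor synapse and is not itself a receptor. It was kept in the counts because the pattern finds it.

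The peaks came from chromatin immunoprecipitation and sequencing (ChIP-seq) of mouse embryonic stem cells of strain 129/Ola, which were left to differentiate in N2B27, a serum-free medium that favours neural fates. Histone H3 carrying acetyl groups (H3ac), which is found at active promoters and enhancers, was mapped on days 2, 4 and 6. The deacetylase HDAC1 was mapped on day 2 through a FLAG tag, which the labels write as 3 FLAG-HDAC1. For every target and day there was a single ChIP library with its input, so no difference between lists has a replicate check. The labels do not say whether the H3ac libraries came from cells with the tagged protein.

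Most of these receptors are ligand-gated channels of nerve and muscle synapses. GABA and glycine receptors pass chloride and usually inhibit a mature neuron, whereas AMPA, NMDA and kainate receptors and nicotinic receptors pass cations and excite. GABA-B and metabotropic glutamate receptors instead act through G proteins. In stem cells and other non-neural cells many neuronal genes are held silent by REST, a repressor that binds the RE1 element and works with deacetylase complexes that contain HDAC1, and Chrnb2, Grin1 and Gria2 are known to carry RE1 elements.

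For H3ac, 17368, 12945 and 5553 peaks were listed on days 2, 4 and 6, and for HDAC1 5286. Median peak widths were 591, 792, 1898 and 311 bp. Each peak has a score from the authors, of at least 50, which serves here only to rank peaks within a list. Among marker genes, gene-end H3ac peaks were present at 6, 0 and 0 of 6 pluripotent genes on days 2, 4 and 6, at 1, 5 and 3 of 6 neural progenitor genes, and at 2, 1 and 1 of 8 neuron genes. Of 6 mesendoderm and 4 skeletal muscle genes, 0 had a gene-end H3ac peak on any day.

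Promoters are shown first, in the RefSeq reference sequence of build GRCm38.p6, each from 250 bases before to 50 bases after an annotated start; the reference is not of the strain of the cells. Of the 67 genes, 47 had an entry in the promoter table, with 56 starts in all. The next 3 promoters each overlapped an HDAC1 peak of day 2, and capitals mark the bases inside that peak.
Chrna3, chr9:55026513-55026812, minus strand: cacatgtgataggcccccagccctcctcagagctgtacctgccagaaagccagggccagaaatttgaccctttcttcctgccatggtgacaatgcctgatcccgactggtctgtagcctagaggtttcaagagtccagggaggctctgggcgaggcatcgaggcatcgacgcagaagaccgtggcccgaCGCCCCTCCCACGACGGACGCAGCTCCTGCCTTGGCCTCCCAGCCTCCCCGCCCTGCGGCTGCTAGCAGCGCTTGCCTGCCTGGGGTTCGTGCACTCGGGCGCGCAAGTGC
Chrnb2, chr3:89764583-89764882, minus strand: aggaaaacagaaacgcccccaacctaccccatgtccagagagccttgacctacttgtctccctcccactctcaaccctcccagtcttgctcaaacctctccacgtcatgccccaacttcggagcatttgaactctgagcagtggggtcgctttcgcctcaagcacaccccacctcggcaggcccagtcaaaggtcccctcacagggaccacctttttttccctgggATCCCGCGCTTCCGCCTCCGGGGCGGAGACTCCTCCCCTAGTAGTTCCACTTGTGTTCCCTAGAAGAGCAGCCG
Grm2, chr9:106656060-106656359, minus strand: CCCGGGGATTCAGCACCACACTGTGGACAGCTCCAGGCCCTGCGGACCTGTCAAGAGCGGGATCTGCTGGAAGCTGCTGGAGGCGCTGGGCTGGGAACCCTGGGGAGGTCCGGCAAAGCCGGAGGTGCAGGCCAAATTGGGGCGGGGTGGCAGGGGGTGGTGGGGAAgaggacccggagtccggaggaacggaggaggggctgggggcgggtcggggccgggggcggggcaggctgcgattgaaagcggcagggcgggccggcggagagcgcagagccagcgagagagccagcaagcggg

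The next pair shows the extremes of base composition among the receptor promoters, with every CG dinucleotide in capitals. Grik3 had the most, 50, and H3ac peaks within 1 kb of its start on days 2 and 4. Gabra3 had 0 and no peak of any list within 10 kb.
Grik3, chr4:125490446-125490745, plus strand: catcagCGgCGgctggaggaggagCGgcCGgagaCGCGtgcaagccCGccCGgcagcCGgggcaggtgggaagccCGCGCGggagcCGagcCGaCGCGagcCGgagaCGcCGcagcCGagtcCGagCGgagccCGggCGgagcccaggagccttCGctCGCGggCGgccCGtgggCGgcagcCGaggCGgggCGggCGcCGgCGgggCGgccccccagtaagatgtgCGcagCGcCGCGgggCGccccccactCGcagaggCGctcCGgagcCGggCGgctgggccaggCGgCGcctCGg
Gabra3, chrX:72656870-72657169, minus strand: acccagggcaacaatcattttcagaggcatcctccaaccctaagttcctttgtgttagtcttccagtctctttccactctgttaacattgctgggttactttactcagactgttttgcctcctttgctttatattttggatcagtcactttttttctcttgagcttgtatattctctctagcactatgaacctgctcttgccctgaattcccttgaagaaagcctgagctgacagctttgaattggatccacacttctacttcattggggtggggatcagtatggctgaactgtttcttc

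H3ac peaks were less frequent at the receptor genes than over all protein-coding genes on each day, whereas HDAC1 peaks in the gene or within 10 kb were more frequent. An H3ac peak in the gene or within 10 kb of it was present at 24 of 67 genes on day 2 (35.8%, 95% Wilson interval 25.4 to 47.8%), against 54.7% of all protein-coding genes. On day 4 there were 23 (34.3%, 24.1 to 46.3%), against 50.5%, and on day 6 there were 8 (11.9%, 6.18 to 21.8%), against 30.8%. For HDAC1 there were 22 (32.8%, 22.8 to 44.7%), against 21.5%. Over any of the 3 days, 36 (53.7%, 41.9 to 65.1%) had H3ac, against 61.3%, and 26 (38.8%) had no peak of any list, against 36.1%. The day counts depended on the lengths of the lists, since with the 5286 top-scoring peaks of each, 6, 4 and 8 receptor genes had H3ac on days 2, 4 and 6, against 30.4%, 31.0% and 29.7% of all genes. The intervals cover counting error over genes only, neighbouring genes share peaks, and no test was made because each list is 1 library.

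**Figure D1:**
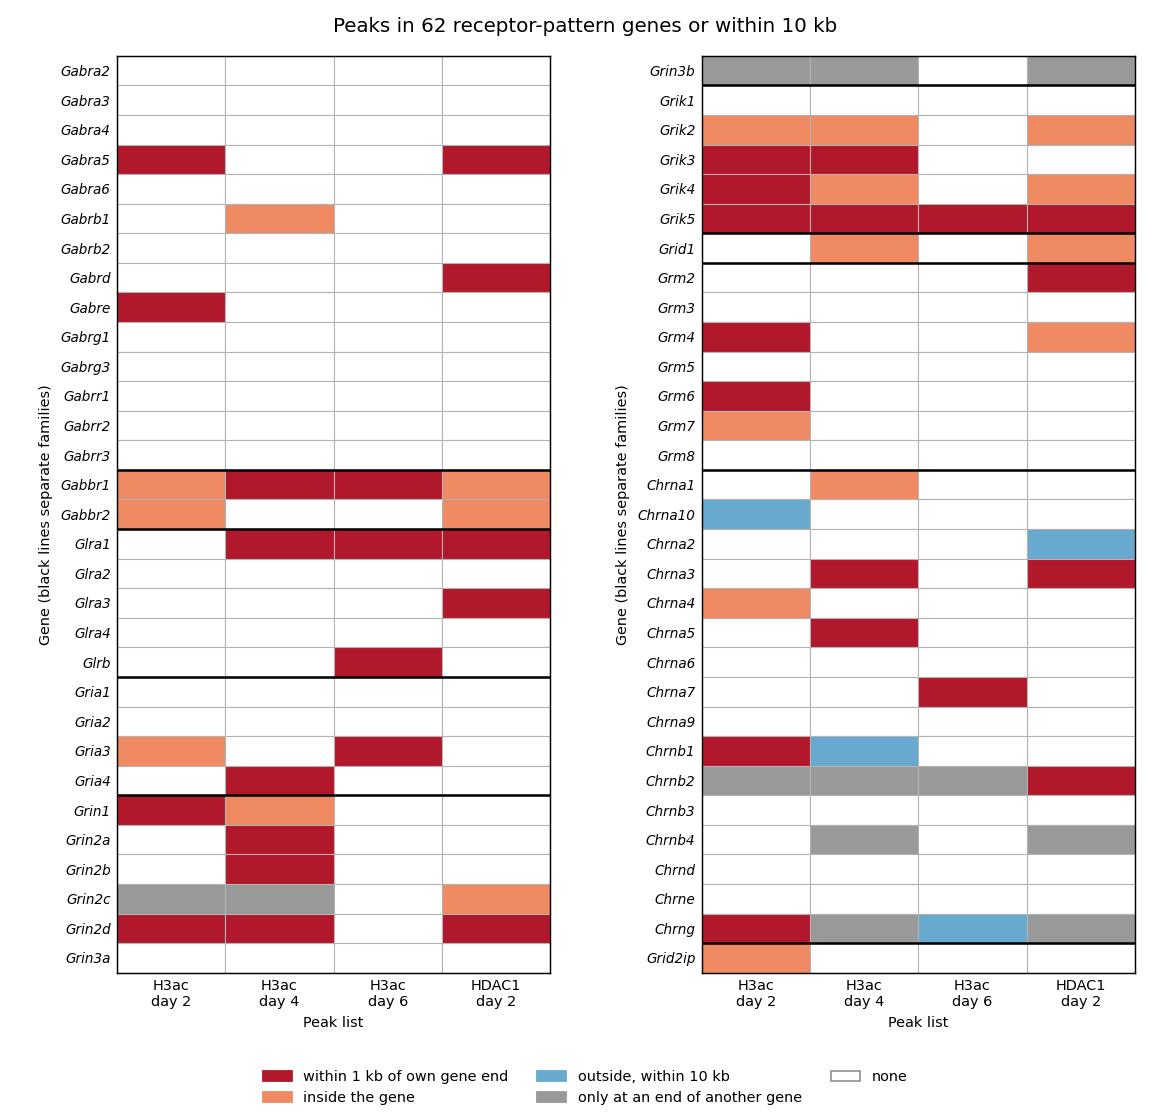
Peaks of each list (columns) at 62 of the 67 genes (rows, by family), coloured by the closest kind of placement found for that gene and list; white cells have no peak in the gene or within 10 kb. The GABA-A block is mostly white, 24 of the plotted genes are white in all 4 columns, and the day 6 column has 8 filled cells.

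Gene ends, where promoters lie, gave lower shares of H3ac again. A peak lay within 1 kb of a gene end at 12 receptor genes on day 2 (17.9%, 10.6 to 28.7%), against 40.6% of all genes, and at 11 on day 4 (16.4%, 9.42 to 27.1%), against 38.0%. On day 6 it was 6 (8.96%, 4.17 to 18.2%), against 23.3%. HDAC1 had a gene-end peak at 10 (14.9%, 8.31 to 25.3%), against 9.4%, which lies inside the interval. Of the 67 genes, 39 (58.2%) had no gene-end peak of any list, against 51.1%, and 23 (34.3%) had one of H3ac on at least 1 day, against 47.7%. For the 47 genes with an annotated start, an H3ac peak lay within 1 kb of it at 8 on day 2, 8 on day 4, 3 on day 6 and 16 on at least 1 day, against 42.4%, 40.3%, 24.1% and 49.4% of the 17491 genes with a start. HDAC1 was at 4 of these starts (8.51%), those of Chrna3, Chrnb2, Glra3 and Grm2, against 9.58%, so at starts alone its share was not above that of all genes. None of these 4 had H3ac there on day 2 (8.51%, 3.36 to 19.9%, against 1.77% of all genes with a start).

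Receptor genes are long, with a median of 88.6 kb against 17.1 kb for the other protein-coding genes, and 43.3% of them exceed 100 kb. A longer gene offers more room for a peak. When the other genes were weighted to the receptor genes' lengths, 62.4%, 58.3% and 35.1% had an H3ac peak in the gene or within 10 kb on days 2, 4 and 6, equivalent to 41.8, 39.1 and 23.5 genes where 24, 23 and 8 were observed. For HDAC1 the weighted share was 28.2%, or 18.9 genes where 22 were observed, and it lies inside the receptor genes' interval.

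Among genes over 100 kb, 9 of 29 receptor genes had an H3ac peak in the gene or within 10 kb on day 2 (31.0%, 17.3 to 49.2%), against 63.6% of other genes of that length. Between 30 and 100 kb there were 4 of 16 (25.0%, 10.2 to 49.5%), against 65%. Under 30 kb there were 11 of 22 (50%, 30.7 to 69.3%), against 49.6%. Gene-end H3ac peaks of these short genes were at 5 of 22 on day 2 (22.7%, 10.1 to 43.4%) against 38.0%, although the interval holds the latter value, and at 2 of 22 on day 4 (9.09%, 2.53 to 27.8%) against 34.9%. HDAC1 peaks were present at 10 of the 22 short genes (45.5%, 26.9 to 65.3%) against 18.2%, at 4 of the 16 of middle length against 24.6%, and at 8 of the 29 longest against 34.7%. Of the short genes, Grin3b, Chrng and Chrnb4 had HDAC1 only at an end of another gene. Gene-end HDAC1 peaks of the short genes were at 4 of 22 (18.2%, 7.31 to 38.5%) against 9.16%, a value inside the interval.

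**Figure D2:**
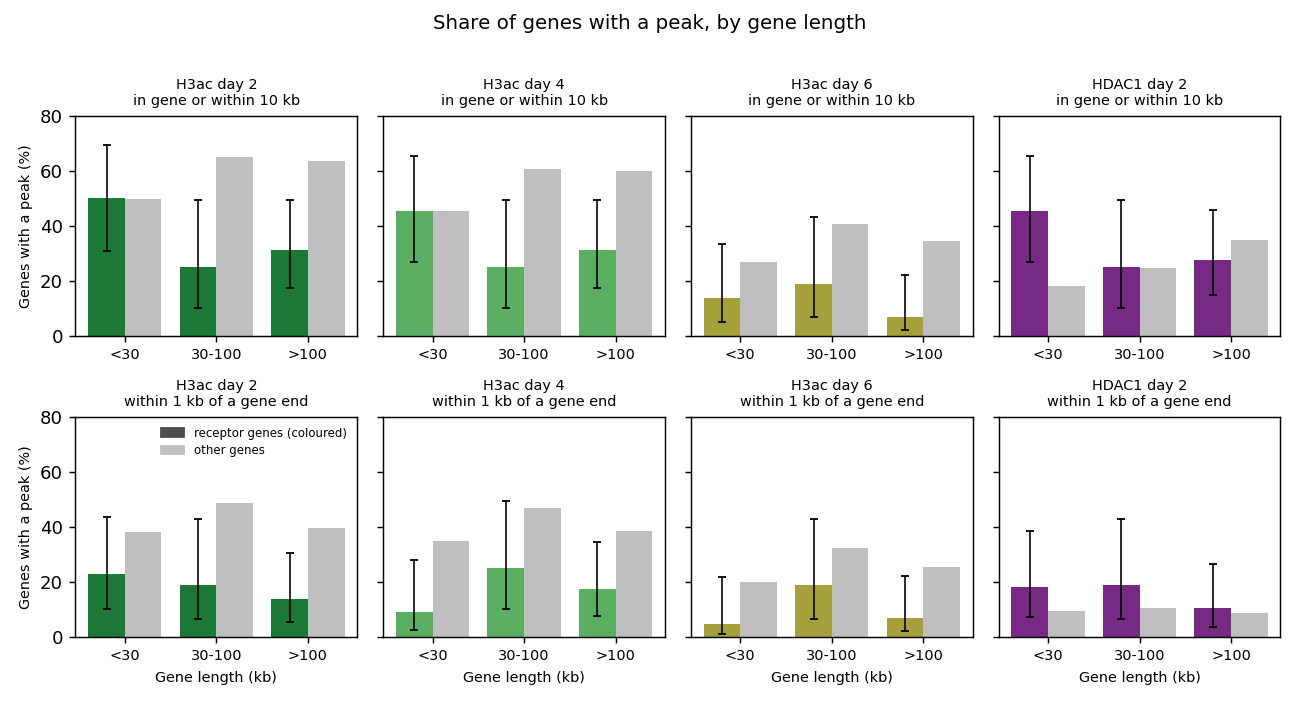
Share of genes with a peak (percent) by gene length in kb, for receptor genes (coloured bars with 95% Wilson intervals) and all other protein-coding genes (grey), in the gene or within 10 kb (top) and within 1 kb of a gene end (bottom). H3ac bars of receptor genes lie below the grey bars in every panel except for genes under 30 kb within 10 kb on days 2 and 4, where they are level.

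The H3ac peaks at ends of receptor genes or inside them mostly scored below the median of their lists, whereas such HDAC1 peaks lay on both sides of it. Peaks at ends of genes outside the receptor set were set aside. Of 46 distinct day 2 H3ac peaks in receptor genes or within 10 kb, 29 then lay at an end of a receptor gene or inside one. Of these 29, 7 scored above the median of the list (80.21), and the highest, in Gabbr1, ranked 5043 of 17368. On day 4 it was 2 of 23, with a best rank of 5809 of 12945, at Grik3. On day 6 it was 2 of 6, with a best rank of 1880 of 5553, at Glra1. For HDAC1 it was 10 of 18, and the best rank was 35 of 5286, again at Glra1. The medians are of whole lists, without this filter. The H3ac peaks left out included the strongest near receptor genes, of score 419.75 on day 2 and 300.25 on day 4, both near Grin2d. The share above the median was not computed for other genes under the same filter.

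**Figure D3:**
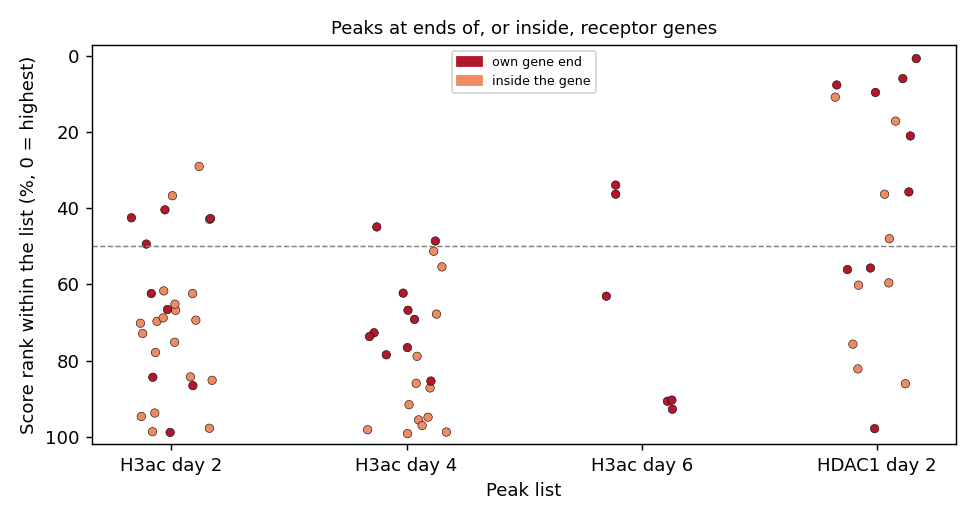
Rank of each such peak within its list, in percent of the list with 0 for the highest score; the dashed line marks the middle of the list. H3ac points lie mostly in the lower part, and the HDAC1 points reach the top of their list.

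Some of the strongest H3ac peaks near receptor genes lay at an end of another gene, and others lay outside the receptor gene with no end of a protein-coding gene within 1 kb. Grin2d, an NMDA receptor subunit gene, came first on day 2 through a peak of score 419.75 (rank 524) that also lay within 1 kb of an end of Grwd1. This is the end of Grin2d away from its start, and HDAC1 (score 104.07) and day 4 H3ac (154.64) were listed there too. Its own annotated start had a single day 2 peak of score 59.93. Grik5 came next on day 2 and was also second on day 4, with peaks of 288.39 (rank 1313) and 260.01 (rank 1687) that lay 1577 and 1861 bp outside the gene and at no such end. Peaks near Chrnb2 on all 3 H3ac days lay at Ube2q1, those near Grin3b at Wdr18 and Tmem259, the H3ac peaks near Grin2c at Fdxr and Fads6, and the stronger ones near Chrng at Eif4e2. Without peaks that lay at the end of another gene and not at the member's own, the counts within 10 kb were 21 on day 2, 18 on day 4, 7 on day 6 and 18 for HDAC1. The share of all genes under this filter was not computed.

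With a limit of 2.5 kb in place of 10 kb, the H3ac counts were 20, 19 and 7, against 49.2%, 45.2% and 26.4% of all genes. For HDAC1 the count was 20 (29.9%), against 16.9%. Just inside 10 kb lay a day 2 H3ac peak 9781 bp from Grin2c (score 84.71), and just outside lay those of Gabrr3, a retinal GABA receptor subunit gene, at 10043 bp on day 2 and 10012 bp on day 6. Chrnd was 10935 bp from a day 2 peak.

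HDAC1 was listed at the ends of 10 receptor genes, and at 7 of them without a gene-end H3ac peak on day 2 (10.4%), against 1.81% of all protein-coding genes. Among them were Glra1, Chrna3, Gabrd, Chrnb2, Glra3 and Grm2. Gene-end H3ac of day 2 accompanied HDAC1 at 3 (4.48%, against 7.59%), Gabra5, Grik5 and Grin2d, though at Grik5 the HDAC1 peak lay at the opposite end of the gene. At 5 (7.46%, against 1.21%) no gene-end H3ac was listed on any day. Gene-end H3ac of day 2 was itself less frequent at receptor genes (17.9%, against 40.6%), and these shares were not adjusted for that. Within 10 kb, 13 genes (19.4%, against 17.7%) had HDAC1 with H3ac of day 2, 9 (13.4%, against 3.82%) HDAC1 without it, and 5 (7.46%, against 2.64%) HDAC1 without H3ac of any day. The last number includes Gabrd, Glra3, Grm2 and Chrna2, whose peak was 8439 bp away. Of the 28 distinct HDAC1 peaks in receptor genes or within 10 kb, 6 (21.4%) overlapped an H3ac peak of any day, against 33.3% of all HDAC1 peaks. An H3ac peak of day 2 was overlapped by 3 of the 28, against 1465 of all 5286 HDAC1 peaks. Among the 24 that were not at an end of a neighbour alone, 3 overlapped any H3ac peak. The share of all HDAC1 peaks under this filter was not computed.

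The strongest HDAC1 peak was at Glra1, which encodes the main alpha subunit of the adult glycine receptor. It ran from 55607769 to 55608122 on chromosome 11 with a score of 1211.63, and lay within the gene at its higher-coordinate end. No H3ac peak lay within 10 kb of Glra1 on day 2. On day 4 a peak of score 104.9 covered that end, and on day 6 a wider one of score 177.26 reached from 55604766 to 55608923, 4158 bp, over the whole HDAC1 peak. It was the 1 receptor gene with HDAC1 of day 2 under H3ac of both later days, but HDAC1 was not mapped on days 4 and 6.

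Nicotinic receptor genes held the next peak. Chrna3 encodes an alpha subunit of receptors of autonomic ganglia and lies in a cluster with Chrna5 and Chrnb4. HDAC1 (55026126 to 55026623 on chromosome 9, score 157.2, rank 313) covered its start, as the capitals in its promoter show. A low-scoring H3ac peak (60.92) overlapped it on day 4, and none was listed on days 2 and 6. Chrnb4, a partner subunit gene, was counted through the same peaks, which lay outside it at the end of Chrna3. Chrna5 had an H3ac peak of its own on day 4, of score 69.48, and no HDAC1.

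Chrnb2, which encodes the beta subunit of the commonest nicotinic receptors of the brain, had an HDAC1 peak of score 93.34 (rank 1112) over its start and another of 60.08 located 4968 bp outside that end. No H3ac peak of any day lay closer to the gene than 7903 bp. Gabrd, which encodes the delta subunit of GABA-A receptors outside synapses, had an HDAC1 peak of score 139.95 (rank 402) inside its higher-coordinate end and no H3ac peak within 10 kb on any day. Grm2 and Glra3 likewise had HDAC1 alone, with scores of 62.38 and 62.19.

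**Figure D4:**
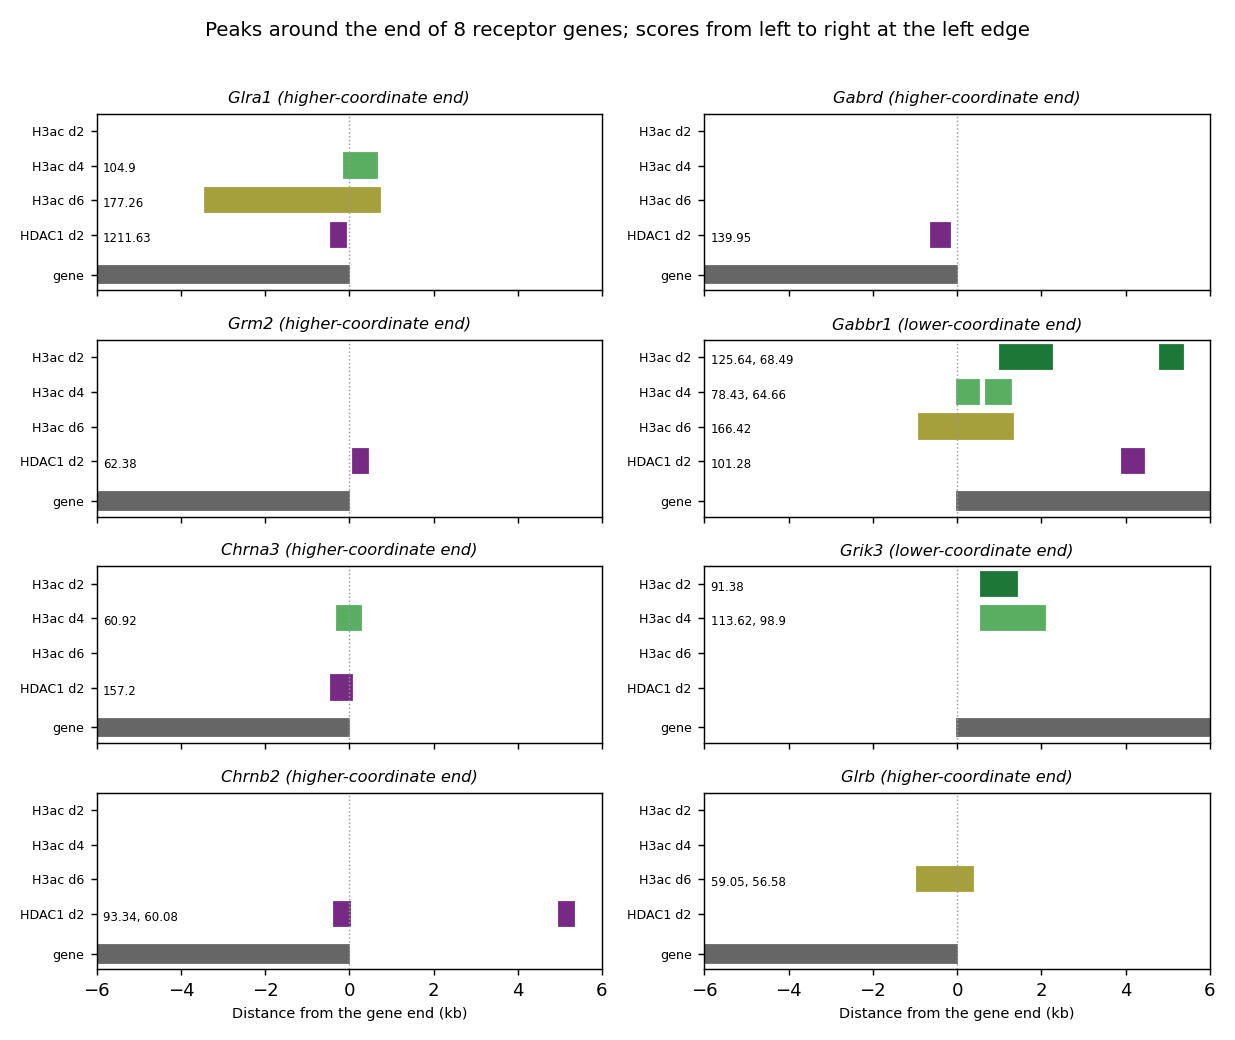
Peaks of the 4 lists within 6 kb of a gene end, plotted as distance in kb in the direction of rising coordinates, with the gene as a grey bar and the peak scores written at the left. Glra1, Chrna3, Chrnb2, Gabrd and Grm2 have HDAC1 at the end and no H3ac on day 2, whereas Gabbr1 and Grik3 have H3ac on day 2, and Glrb on day 6 alone.

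The promoters were searched for both parts of the RE1 element, CAGCACC and GGACAG, on either strand. GGACAG was found in 21 of the 56 receptor promoters (37.5%) against 22.3% of 21262 promoters of protein-coding genes, and CAGCACC in 3 (5.36%) against 7.24%. Both parts on the same strand and at most 30 bases apart, counted from start to start, were found in 33 promoters in all (0.155%), of which 11 were among the 1929 promoters with an HDAC1 peak within 1 kb of the start (0.57%). One receptor promoter was among them, that of Grm2, a presynaptic metabotropic glutamate receptor. Its parts start 240 and 226 bases before the annotated start and lie inside the HDAC1 peak, which runs from 106656193 to 106656556 on chromosome 9. Both parts are in capitals in the stretch below.
Grm2, chr9:106656326-106656351, minus strand: ttCAGCACCacactgtGGACAGctcc

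The windows of Chrna3 and Chrnb2 held neither part, and most of their HDAC1 peaks lay beyond the printed 50 bases after the start. A match is a description of letters and not a measured binding site. Grin1 and Gria2 had GGACAG alone and no HDAC1 peak within 10 kb. Gria2 had no peak of any list, and the H3ac peak of day 2 at an end of Grin1 (score 88.69) lay beside Lrrc26 at the end away from the start.

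At promoters with 10 or more CG dinucleotides, H3ac was less frequent in receptor genes than over all genes of like CG content. Promoters with 20 or more CG dinucleotides had an H3ac peak within 1 kb of the start on any day in 7 of 16 receptor promoters (43.8%, 23.1 to 66.8%), against 82.2% of 7640 such promoters of all genes. With 10 to 19 it was 7 of 18 (38.9%, 20.3 to 61.4%) against 66.6%, and with under 10 it was 3 of 22 (13.6%, 4.75 to 33.3%) against 11.6%. Both higher classes lay below all genes beyond the counting interval, and the lowest did not. The intervals count each start singly, and the 18 promoters of the middle class belong to 16 genes. For HDAC1, from the highest class down, it was 1 of 16 (6.25%) against 15.8%, 2 of 18 (11.1%) against 12.7%, and 1 of 22 (4.55%) against 1.74%. Each of these values for all genes lay inside the interval. The median was 18 CG in receptor promoters with an H3ac peak and 10 in those without, against 22 and 4 over all genes. Gabbr2 with 46, Grin1 with 33 and 1 start of Grm8 with 33 were CG-rich and had no H3ac peak within 1 kb of the start.

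**Figure D5:**
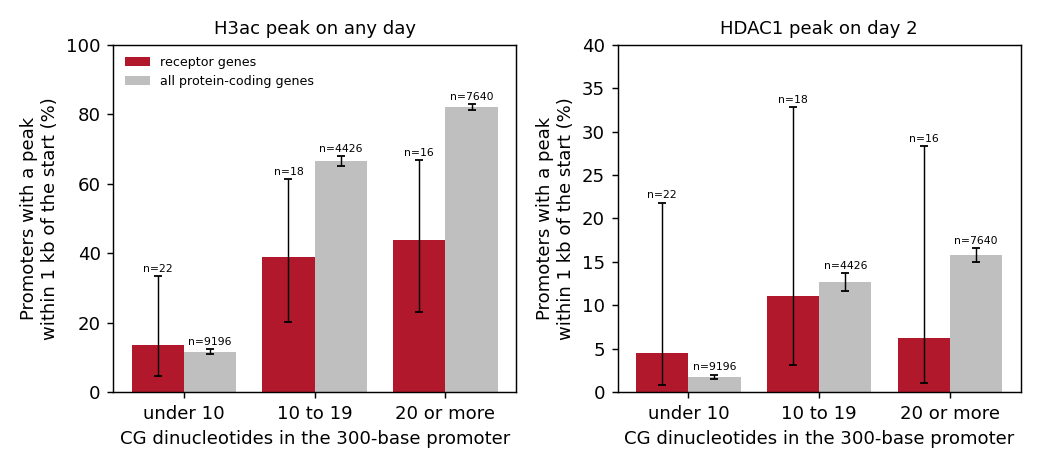
Percent of promoters with an H3ac peak of any day (left) or an HDAC1 peak (right) within 1 kb of the start, by number of CG dinucleotides in the 300-base promoter, for receptor genes (red) and all protein-coding genes (grey); bars carry 95% Wilson intervals and n is the number of promoters. The H3ac bars of receptor promoters stand at 43.8% and 38.9% in the upper classes, below 82.2% and 66.6%.

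No test between families was made. In the GABA-A family, 12 of 17 genes had no peak of any list in the gene or within 10 kb, where 36.1% of all genes had none. The cluster from Gabrg1 to Gabrb1 on chromosome 5 spans 1.4 Mb with 4 GABA-A genes, and it held 1 peak, of H3ac on day 4, which had a score of 50.22 and lay at a second start of Gabrb1.

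The other GABA-A genes with H3ac had it on day 2. Gabra5, which encodes an alpha subunit of receptors mostly outside synapses, had day 2 peaks of score 80.99 and 67.92 at its higher-coordinate end on chromosome 7. An HDAC1 peak (57591950 to 57592485, score 127.09, rank 506) lay 934 bp outside that end and overlapped neither. Another day 2 H3ac peak, of 63.33, lay at an annotated start inside the gene. No H3ac peak was listed in Gabra5 or within 10 kb on days 4 and 6. Gabre, of the epsilon subunit, had a day 2 peak of score 55.41 at its start. The genes without peaks included Gabra2, Gabra3 and Gabra4, and the retinal Gabrr1, Gabrr2 and Gabrr3.

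Both GABA-B genes had peaks. Gabbr1, which encodes the subunit that binds GABA, was 1 of 4 genes with H3ac within 10 kb on all 3 days, a class that held 27.0% of all protein-coding genes. Its day 2 peak (score 125.64) began 1022 bp inside the gene, just past the gene-end limit. On day 4 peaks of score 78.43 and 64.66 lay at the start itself, and on day 6 a peak of score 166.42 from 37045052 to 37047285 spanned it. HDAC1 lay farther in, from 37049882 to 37050404 (score 101.28), and overlapped none of these. The other 3 genes of the class were Grik5, Chrnb2 and Chrng, and those owed all or part of it to peaks at neighbouring genes. Gabbr2, of the partner subunit, had a day 2 H3ac peak (62.87) and HDAC1 peaks (69.81 and 54.95), of which the first HDAC1 peak was above its list's median score.

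Among glycine receptor genes, Glrb was listed on day 6 alone. It encodes the beta subunit, which anchors the receptor at the synapse, and its start had adjoining peaks of score 59.05 and 56.58, near the lowest score of 50. Glra2 and Glra4 had no peak within 10 kb of any list.

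Of 5 kainate receptor genes, 4 had H3ac within 10 kb on day 2 and again on day 4, all but Grik1, where 54.7% and 50.5% of all genes had it, and 63.6% and 59.9% of other genes over 100 kb. The family's median length was 395 kb, although Grik5 is 65.8 kb long. Grik3 had a peak over nearly the same bases on both days, from 125490828 to 125491678 (score 91.38) and from 125490824 to 125491677 (113.62), and none on day 6. Grik4, a high-affinity subunit gene, had peaks of score 91.8 and 54.57 at its start on day 2, and on day 4 an internal one of 51.57. Grik2 had internal peaks on day 2 (63.05 and 52.25) and a peak at its start on day 4 (71.11), all below the medians of their lists. HDAC1 peaks of this family scored below the median of their list and lay inside Grik2 (60.7), inside Grik4 (60.42 and 52.48) and at the lower-coordinate end of Grik5 (50.26).

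Grik5, another high-affinity subunit gene, had H3ac at its annotated start on day 2 (103.34 and 90.92) and day 4 (55.88 and 90.98). Its higher-coordinate end, which shares its peaks with an end of Zfp574, was marked on all 3 days (117.68, 79.99 and 87.48). It was the only receptor gene with a gene-end peak on all 3 days, against 18.5% of all genes.

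Of 7 NMDA receptor genes, 4, 6 and 0 had H3ac within 10 kb on days 2, 4 and 6, neighbours' peaks included, where 54.7%, 50.5% and 30.8% of all genes did. Grin3a had no peak. Grin2a and Grin2b, which encode the glutamate-binding subunits of the forebrain, each had a day 4 peak at the higher-coordinate end, of score 65.82 and 56.18, and no other peak in the gene or within 10 kb. Grin1, of the obligatory subunit, had internal peaks of 52.01 on day 2 and 50.55 on day 4 and none at its start. Grin2c had an internal HDAC1 peak of 74.33. Among AMPA receptor genes Gria4 had a day 4 peak at its start (72.5), Gria3 had a day 6 peak at its lower-coordinate end (58.68) and an internal day 2 peak (64.2), and Gria1 and Gria2 had none. The scaffold gene Grid2ip had day 2 H3ac alone. Grid1, a delta receptor gene, had HDAC1 inside the gene (120.38 and 66.04) and 1 internal day 4 peak (53.43).

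Metabotropic glutamate receptor genes, of median length 318 kb, had H3ac within 10 kb on day 2 alone, at Grm4, Grm6 and Grm7. These were 3 of 8, against 54.7% of all genes and 63.6% of other genes over 100 kb. Grm2, Grm4 and Grm6 are themselves shorter than that, at 11.6, 91.4 and 15.8 kb. The peak at an end of Grm4 scored 95.82, that at the start of Grm6, the receptor of retinal ON bipolar cells, 64.34, and that inside Grm7 55.15. None of the 8 was listed for H3ac on days 4 or 6, where 50.5% and 30.8% of all genes were, and 59.9% and 34.6% of other genes over 100 kb. Genes with HDAC1 included Grm2 and Grm4. Grm3, Grm5 and Grm8 had no peak.

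Nicotinic receptor genes were the shortest family, with a median of 16.8 kb, and 5, 7 and 3 of 16 had H3ac within 10 kb on days 2, 4 and 6, where 54.7%, 50.5% and 30.8% of all genes did. Chrna7, which forms receptors of a single subunit type, had a peak over its start on day 6 alone (63211611 to 63212567 on chromosome 7, score 96). Among the genes of the muscle receptor, Chrnb1 had a day 2 peak of 55.79 at its start beside Fgf11, and others of 213.49 (rank 2302) and 77.64 on day 2 and 85.74 on day 4 outside the gene, at 3876 bp and farther. Chrna1 had day 4 peaks of 51.88 and 58.49, and Chrng had a day 2 peak of 50.51 at its far end, while Chrnd and Chrne had none. Of the neuronal subunit genes, Chrna4 had a day 2 peak inside (61.16), Chrna10 one outside (66.9), and Chrna6, Chrna9 and Chrnb3 had no peak.

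Across days, 8 receptor genes gained a listed gene-end H3ac peak between day 2 and day 4 (11.9%, against 5.94% of all genes), among them Chrna3, Chrna5, Gria4, Grin2a, Grin2b, Gabbr1 and Glra1. Present on day 6 and absent on day 2 were 5 (7.46%, against 3.05%): Gabbr1, Glra1, Chrna7, Glrb and Gria3. In the other direction, 11 had a day 2 and no day 6 gene-end peak (16.4%, against 20.3%). Each share is over genes with or without a day 2 peak. A day 2 gene-end peak was present at 17.9% of receptor genes and 40.6% of all genes. Receptor genes and all genes therefore differ in the share that could gain one, and the gain among such genes alone was not computed. Of the 12 receptor genes with a day 2 gene-end peak, 11 had none on day 6, against 4448 of 8875 over all genes. Within 10 kb the numbers for gain by day 4, gain by day 6 and absence on day 6 were 10 (14.9%, against 5.82%), 3 (4.48%, against 2.32%) and 19 (28.4%, against 26.2%). The 19 were among 24 with a day 2 peak, against 5725 of 11960 over all genes. Of the 8 genes that gained a gene-end peak by day 4, only Glra1 had one above the day 4 list's median score of 101.6. Whether a peak that is absent from a list narrowly missed its threshold was not tested, and the lists hold no read depth.

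Other genes of the same synapses were counted in the same way at gene ends, where 40.6%, 38.0% and 23.3% of all genes had H3ac on days 2, 4 and 6 and 9.4% had HDAC1. Of 20 genes of transmitter synthesis and transport, 4, 3 and 2 had a gene-end H3ac peak on days 2, 4 and 6, and 5 had one of HDAC1. Glul, of glutamine synthetase, and Slc6a9, of a glycine transporter, were marked on all 3 days. HDAC1 ends included Gad2, of a GABA-synthesising enzyme (score 92.7), and Slc17a6, of a vesicular glutamate transporter (78.36). Of 40 scaffold and auxiliary subunit genes, 9, 8 and 7 had a gene-end H3ac peak and 6 had one of HDAC1. The highest HDAC1 peak in these lists was at Cacng2, of an auxiliary AMPA receptor subunit (score 1605.44, rank 22), followed by Cacng3 of the same family (390.9, rank 136), and neither had H3ac within 10 kb. Of 11 other ligand-gated channel genes, 2, 2 and 2 had gene-end H3ac and 0 had HDAC1, with P2rx3 and P2rx4 marked each day.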

How the data were processed

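Per the submitters' processing notes, reads were aligned with Bowtie 0.12.8 to build mm10. The deposited lists give chromosome, start, end, name and a score per peak of 1 ChIP library. Names begin with MACS, a peak caller. Not given in the sources used here are its version, cut-off, score scale and use of input, so the authors' score only ranked or filtered peaks within a list. Input libraries and read depth were not analysed here, and calls depend on depth.

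Genes came from RefSeq (GRCm38.p6, the coordinates of mm10), 21883 protein-coding on chromosomes 1 to 19, X and Y. Starts and strands came from the RefSeq promoter table. A gene had a peak when 1 bp overlapped the gene or 10 kb around it, and a gene-end peak when a peak came within 1 kb of either end. Coordinates are 1-based. Shares have 95% Wilson intervals. Length weighting used 10 classes of equal number, without random draws. Scripts (Python 3.11.15, pandas 2.3.3, SciPy 1.17.1) were tested on simulated data.

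Named genes were 7 candidates whatever their values (Grin1, Gria2, Chrnb2, Gabbr1, Glrb and Chrna1 among them), all with a gene-end peak, the 6 best-ranked per list, those whose HDAC1 peak overlapped H3ac, those with H3ac on all 3 days, and others to describe a family. Members, lists and rules were chosen with earlier results of these data known. The CG classes, the length classes of 30 and 100 kb, the 30-base limit for motif parts and the choice of printed promoters were set after the values were seen. Single-gene results of 5 of the 67 genes are not reported here, although the counts include them.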

Additional observations from a re-analysis of the deposited data

How the results depend on the processing

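Of 56 alternative values, 40 stayed within 1.5 times the value reported or, for length-weighted shares, within its counting interval. Some of the 40 could not move. Leaving out Grid2ip could change only the day 2 number within 10 kb, and the 5286 top-scoring peaks are the whole HDAC1 list. The largest moves came from list length. With the 5286 top-scoring peaks of each list, receptor genes with a peak in the gene or within 10 kb numbered 6 on day 2 and 4 on day 4, beside 8 on day 6, and those with a gene-end peak numbered 1 and 1, beside 6 on day 6. The fall in number from day 2 to day 6 was therefore not seen with lists of equal length. The shares stayed below those of all genes (30.4%, 31.0% and 29.7% within 10 kb, and 22.3%, 22.8% and 22.4% at gene ends). With the higher-scoring 50% of each list the numbers within 10 kb were 14, 8 and 3 on days 2, 4 and 6, against 40.8%, 35.5% and 17.2% of all genes. Those at gene ends were 3 on day 4 and 2 on day 6, against 26.6% and 12.9%. The gene-end number on day 4 was 5 with a 0.5 kb limit, against 34.5%. On day 2 it was 6 when ends with another gene end within 2 kb were left out, with no share of all genes computed. Peaks touching the gene itself left 5 genes on day 6, against 24.6%. With 20 length classes the weighted shares were 61.5%, 57.6%, 33.8% and, for HDAC1, 29.9%. For each other move the cause was not tested. No HDAC1 count moved by over 1.5 times in these alternatives, but lists of equal length could not change the HDAC1 counts. No paired analysis was possible because each target and day had 1 library. Leaving out a replicate was not possible for the same reason.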

Other observations

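Of the 26 genes with no peak of any list in the gene or within 10 kb, 12 had one within 50 kb and 11 had none within 100 kb. The median distance to the nearest peak of any list was 72.6 kb. The farthest was Gabrg1, at 857 kb. These distances were not computed for other genes without a peak, so they cannot show whether receptor genes lie unusually far from peaks.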
